A study of Arabidopsis thaliana with 8 samples.

Results

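The genes described here are 34 Arabidopsis thaliana genes of protein folding, chosen by locus from a fixed list and found in a table of 30361 features. They fall into 21 heat shock genes, mostly of the cytosol and nucleus, and 13 genes of the endoplasmic reticulum (ER) and its stress response. All 34 were on the array. RefSeq gives a name for 31 of them, and the other 3, small heat shock proteins by the rule that chose them, are called by locus (AT2G29500, AT1G53540 and AT1G07400).

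RNA came from leaves of plants 6 weeks old, raised in soil at 22 C in days of 16 h light and 8 h dark. One genotype was the wild type (WT). The other was a transgenic line, number 57, with the DGTT2 gene of the alga Chlamydomonas, whose product, a type 2 diacylglycerol acyltransferase, catalyses the last step in making triacylglycerol oil. Each genotype had 4 RNA samples that the labels call biologically independent, and each sample was hybridised to 1 array with the dye Cy3. Since line 57 was the only one, the transgene and other features of the line cannot be told apart. Whole leaves were used, so fewer cells of a type and less RNA per cell cannot be told apart either. The promoter that drives DGTT2 is not given in the sources used here. All features are Arabidopsis loci, so the algal transcript gave no check of the genotype labels.

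When proteins unfold in the cytosol, heat shock factors (HSFs) turn on genes for small heat shock proteins (sHSPs), which hold unfolded proteins in solution, and for the larger HSP70, HSP90 and HSP101 chaperones, which refold or extract them. The ER has a response of its own, the unfolded protein response. The sensor IRE1 splices the mRNA of bZIP60, bZIP28 is released from the ER membrane by proteolysis, and both factors then turn on BiP, calreticulin and other ER chaperones. Enzymes of triacylglycerol assembly, acyltransferases of the DGAT2 family among them, are known to sit in the ER membrane. The comparison asks whether transcripts of either response differed in leaves that carry such an enzyme.

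In these leaves 0 of the 34 genes were called changed between the line and WT at an adjusted p under 0.05 (limma, Benjamini-Hochberg over all features), where 0.0725% of all features were called. With an unadjusted p under 0.05 in place of this the count was also 0 of 34, where 10.5% of all features passed. The genotypes overlapped in all 34, while they did not overlap in 5.64% of all features. The smallest adjusted p was 0.539, for BAG6. BIP3 had the largest log2 difference (DGTT2 minus WT), 0.98, in an interval that includes 0. The median was 0.10 over the 21 heat shock genes and 0.09 over the 13 ER genes, against -0.001 over all features. The mean was higher in DGTT2 for 13 of 21 heat shock genes and 11 of 13 ER genes, where 49.7% of all features were higher.

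The array values limit what can be said of some members. Values of different features are not set against each other, since each depends on its own probes. As a guide to background, the 4414 features that RefSeq calls pseudogenes had a median log2 level of 5.95 and a 90th percentile of 8.48. HSP21 and HSP22.0 had a genotype mean under that median, and 9 of the 21 heat shock genes had one under that 90th percentile, 8 of them sHSPs and the other HSFA7A. These 9 were not shown to lie above background, so their array values are given and no difference in transcript is read from them. The counts and medians over all 21 heat shock genes include them. No detection call for single features was used here. At the other end BIP1, BIP2 and SHD had means over 15 on a scale whose highest value was 15.99, where differences may be compressed. BIP1 and BIP2 encode nearly identical proteins, and HSP90.2 has close copies near it in the genome, so the values of such genes may share signal.

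The precision of these comparisons can be read from the intervals of the remaining genes. Among the 25 members outside that group of 9, the log2 differences ran from -0.22 for BAG6 to 0.98 for BIP3, and 19 were higher in DGTT2. Their median was 0.09. The 95% interval of the difference lay within 2-fold in either direction for 24 of them, BIP3 being the exception, where 91.9% of all features met the same bound. Leaving out BIP1, BIP2 and SHD as well, it did so for 21 of 22.

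**Figure D1:**
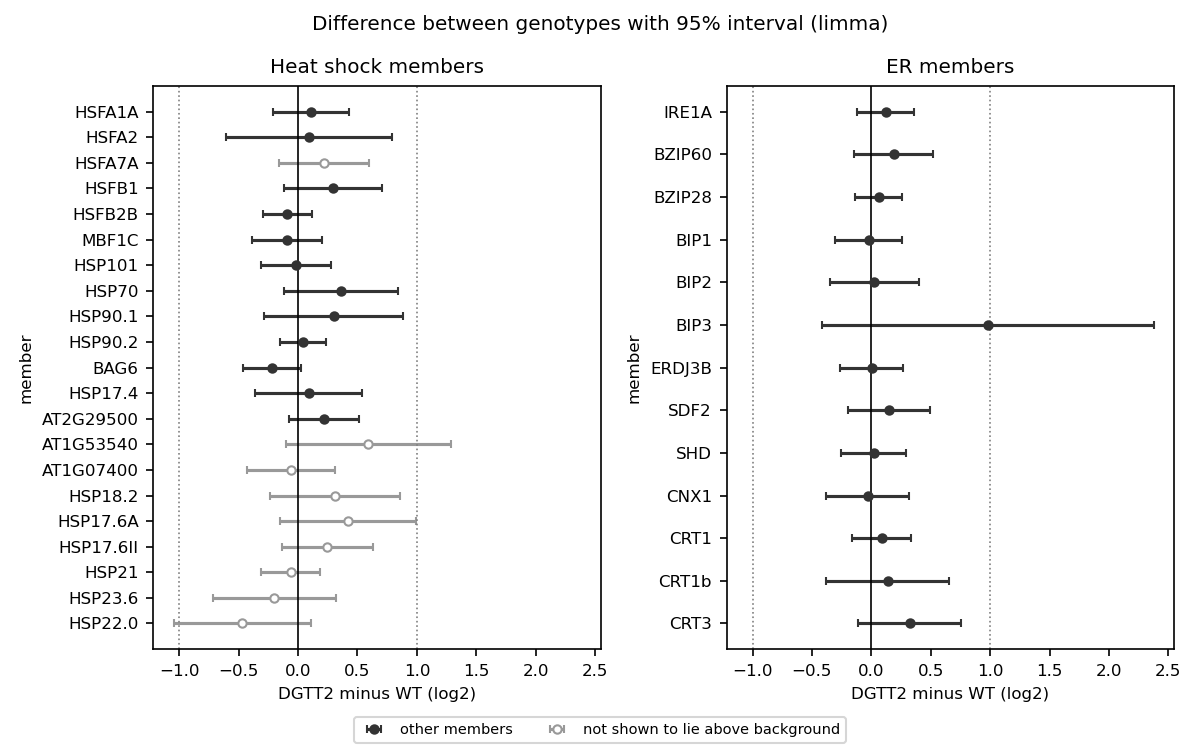
Difference between genotypes for each member, with its 95% interval from limma, on the log2 scale; dotted lines mark 2-fold in either direction. Open grey circles are the 9 members not shown to lie above background, for which the plot shows array values only. All 34 intervals include 0, and the widest is that of BIP3, from -0.42 to 2.38.

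Among the regulators of the heat response, HSFA1A, a constitutive factor that starts the response, differed by 0.11 (95% interval -0.21 to 0.43). HSFA2, a heat-induced factor that prolongs it, differed by 0.10 (-0.60 to 0.79). Its 4 DGTT2 values lay between 8.96 and 9.29, while the WT arrays gave 9.39, 9.89, 8.72 and 8.25 for replicates 1 to 4, so both the highest and the lowest value were in WT. HSFB1, a class B factor that represses heat genes in the absence of heat, differed by 0.30 (-0.12 to 0.71), and the related HSFB2B by -0.09 (-0.30 to 0.11). HSFA7A, another induced factor, was at 7.05 ± 0.20 in DGTT2 and 6.83 ± 0.31 in WT (SD, n = 4 each). MBF1C, a coactivator needed for tolerance of heat, differed by -0.10 (-0.39 to 0.20).

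The larger chaperones of the cytosol also overlapped between genotypes. HSP70, a heat-inducible member of its family, was at 11.73, 11.71, 11.52 and 11.26 in DGTT2 replicates 1 to 4 and at 11.23, 11.80, 10.85 and 10.89 in WT. The highest value and the lowest were both in WT, and the difference of 0.36 (SE 0.21, adjusted p = 0.613, limma) is a 1.29-fold ratio. It ran from 0.25 to 0.57 with 1 array left out. HSP90.1, the heat-inducible HSP90, differed by 0.30 (-0.29 to 0.89), with a WT range of 11.28 to 12.59 around a DGTT2 range of 12.07 to 12.28. With 1 array left out its difference ran from 0.10 to 0.54. HSP90.2, which is made without heat, differed by 0.04 (-0.15 to 0.23), and HSP101, the disaggregase needed for acquired heat tolerance, by -0.02 (-0.32 to 0.28). BAG6, a calmodulin-binding partner of HSP70 chaperones, had the smallest p of the 34 and differed by -0.22 (12.26 ± 0.17 against 12.47 ± 0.06, SD, n = 4 each, adjusted p = 0.539, limma). DGTT2 replicate 1, at 12.44, lay above the lowest WT array, at 12.40.

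The sHSPs act before refolding, and those of the cytosol form class I and class II. Of the 10 sHSPs, 8 were not shown to lie above background. AT1G53540, of the small heat shock genes, was at 7.63, 6.83, 6.94 and 7.17 in DGTT2 replicates 1 to 4 and at 5.71, 6.40, 7.21 and 6.89 in WT. Its WT replicates 3 and 4 lay inside the DGTT2 range (adjusted p = 0.559, limma). HSP17.6A, of cytosolic class II, gave 7.70, 7.88, 7.86 and 7.40 in DGTT2 and 7.68, 7.40, 7.61 and 6.47 in WT. WT replicate 4 was the low one, and the other WT arrays lay within the DGTT2 range (adjusted p = 0.632, limma). Its direct neighbour among protein-coding genes, HSP17.6II of the same class, was at 7.99 ± 0.29 in DGTT2 and 7.74 ± 0.23 in WT (SD, n = 4 each), with WT replicates 2 and 4 inside the DGTT2 range.

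The sHSPs outside that group were AT2G29500, with a log2 difference of 0.22 (-0.08 to 0.51, adjusted p = 0.623, limma), and HSP17.4, with one of 0.09 (-0.36 to 0.54). HSP18.2 was at 7.60 in DGTT2 and 7.29 in WT, and AT1G07400 at 7.98 and 8.04 (means, n = 4 each). The 3 sHSPs sent to organelles were all among those not shown to lie above background. HSP22.0, the sHSP of the ER, gave 5.51, 5.79, 4.68 and 5.52 in DGTT2 replicates 1 to 4 and 5.32, 6.17, 5.90 and 5.99 in WT. DGTT2 replicate 3 was lowest, and WT replicate 1 lay inside the DGTT2 range (adjusted p = 0.581, limma). HSP23.6 of mitochondria was at 7.33 and 7.53 in DGTT2 and WT, and HSP21 of plastids at 4.97 and 5.03.

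**Figure D2:**
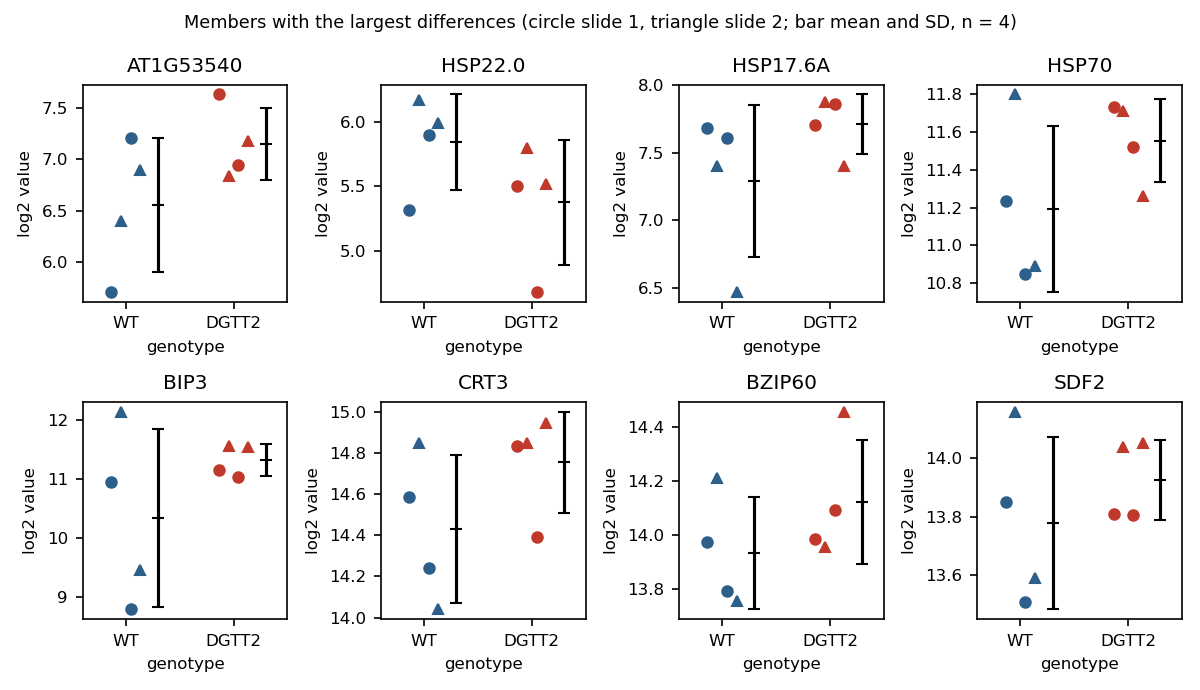
Log2 values of the 4 heat shock and the 4 ER members with the largest differences, by genotype; circles are arrays of slide 1, triangles of slide 2, and bars give the mean and SD (n = 4). WT values of BIP3 spread from 8.80 to 12.14, around the DGTT2 values of 11.03 to 11.55.

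Sensing and control of ER stress showed small differences. IRE1A, one of the sensors, differed by 0.12 (-0.12 to 0.36), and its DGTT2 values all lay between 12.80 and 12.84. bZIP60 (BZIP60), its target, was at 13.98, 13.95, 14.09 and 14.46 in DGTT2 and at 13.97, 14.21, 13.79 and 13.75 in WT. The genotypes overlapped through WT replicates 1 and 2, and the difference was 0.19 (SE 0.15, adjusted p = 0.735, limma). The table has 1 value for this gene and does not separate its spliced and unspliced mRNA. The same limit holds for bZIP28 (BZIP28), whose activation is proteolytic and not seen in its transcript. Its difference was 0.06 (-0.14 to 0.26).

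BIP3 had the largest difference of the 34 genes and the largest spread. BiP is the HSP70 of the ER, and BIP3 is the copy that is low without stress and strongly induced by it. Its values were 11.16, 11.55, 11.03 and 11.54 in DGTT2 replicates 1 to 4, and 10.96, 12.14, 8.80 and 9.46 in WT. The DGTT2 arrays were close together, WT replicate 2 was the highest of all 8, and WT replicates 3 and 4 were the lowest. The difference of 0.98 (SE 0.62, adjusted p = 0.645, limma) had an interval from -0.42 to 2.38. It was 1.58 without WT replicate 2 (adjusted p = 0.192) and 0.47 without WT replicate 3 (adjusted p = 0.853).

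BIP1 and BIP2, the copies made at all times, differed by -0.02 (-0.30 to 0.26) and 0.02 (-0.35 to 0.40). ERDJ3B and SDF2, which work with BiP in the ER lumen, differed by 0.004 (-0.26 to 0.27) and 0.15 (-0.20 to 0.49). SDF2 was at 13.81, 14.04, 13.81 and 14.05 in DGTT2 and at 13.85, 14.16, 13.51 and 13.59 in WT, again with WT replicate 2 highest and WT replicates 3 and 4 lowest. SHD, the HSP90 of the ER, differed by 0.02 (-0.25 to 0.29).

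Calnexin and the calreticulins hold glycoproteins in the ER until they are folded. CNX1 differed by -0.03 (-0.38 to 0.32), CRT1 by 0.09 (-0.16 to 0.34) and CRT1b by 0.14 (-0.38 to 0.65). CRT3, a plant-specific calreticulin needed for the immune receptor EFR, was at 14.83, 14.85, 14.39 and 14.94 in DGTT2 and at 14.59, 14.85, 14.24 and 14.04 in WT. WT replicates 3 and 4 were below every DGTT2 array, WT replicates 1 and 2 were not, and the difference of 0.32 (SE 0.19, adjusted p = 0.619, limma) is a 1.25-fold ratio. It ran from 0.19 to 0.46 with 1 array left out.

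Differences among WT arrays were larger than those between genotypes for the most variable members. The pooled SD within genotypes was above the 90th percentile of all features (0.42) in 6 of 34 members, where 10% of features are by construction. Of these, 3 were among the 9 members not shown to lie above background. Among the other 25 members 3 had such an SD (12%), close to the share of all features. The largest pooled SD was that of BIP3, at 1.08. HSFA2 had an SD of 0.73 in WT against 0.16 in DGTT2, and HSP90.1 one of 0.61 against 0.09. The larger SD was in WT for 22 of the 34 members, where 55% of all features had it there. The least variable members were HSP90.2, BZIP28 and HSFB2B, with pooled SDs of 0.060, 0.075 and 0.085.

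**Figure D3:**
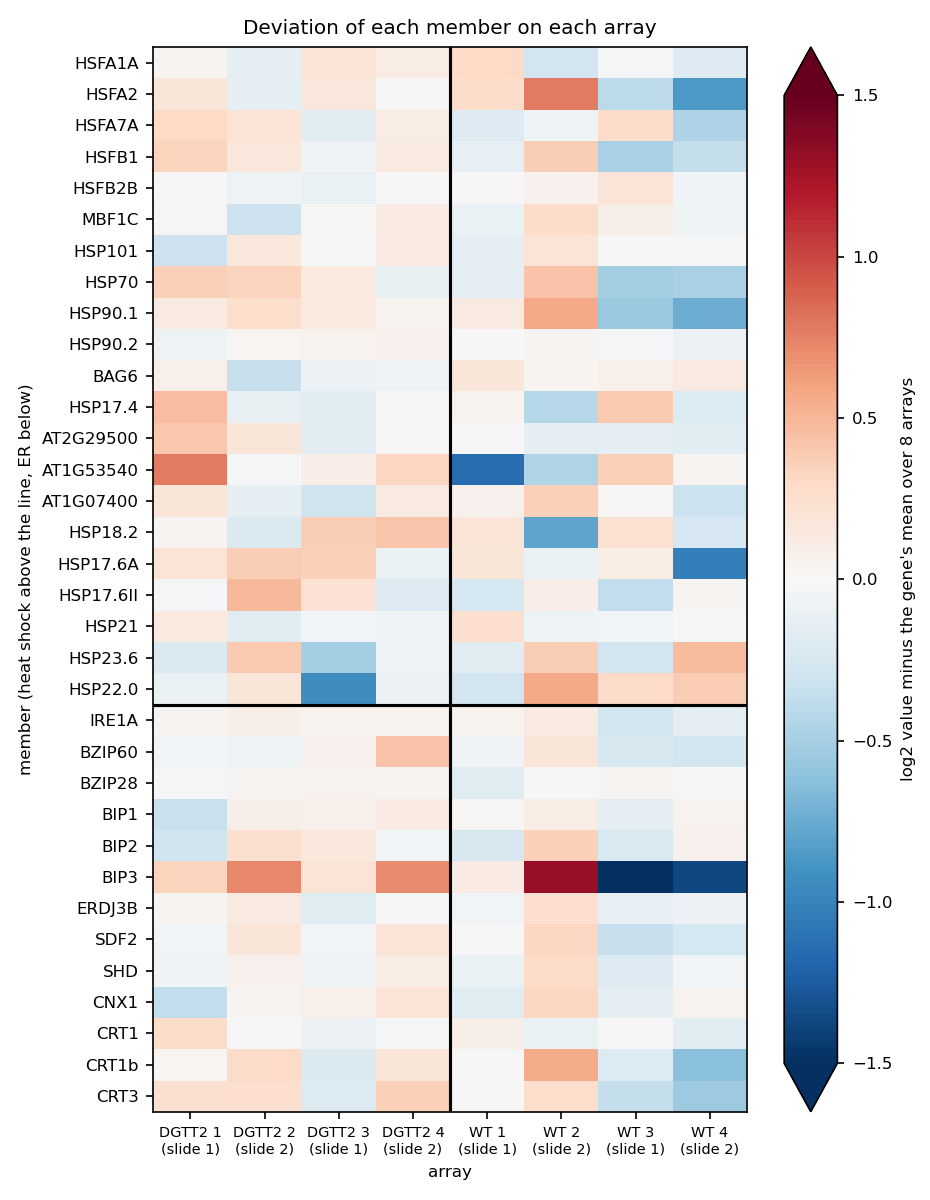
Log2 value of each member on each array minus the gene's mean over all 8 arrays, with red for higher and blue for lower. BIP3, HSFA2 and HSP90.1 are high on WT replicate 2 and low on WT replicates 3 and 4.

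WT replicate 2 was high and WT replicates 3 and 4 were low in many of the ER genes. WT replicate 2 held the highest value for 8 of 13 ER genes and 8 of 21 heat shock genes, where it held the highest for 13.4% of all features. The lowest value was in WT replicate 3 for 4 ER genes, in WT replicate 4 for another 4 and in DGTT2 replicate 1 for 3. These arrays held the lowest value for 12.7%, 12.6% and 13.9% of all features. Averaged over the 13 ER genes, deviations from each gene's mean were -0.04, 0.31, -0.32 and -0.26 in WT replicates 1 to 4. The 4 DGTT2 arrays lay between these ends, from -0.02 to 0.18. BIP3, the most variable member, weighs heavily in these means. The medians over the same 13 genes were -0.004, 0.26, -0.21 and -0.14 in WT replicates 1 to 4. Over the 21 heat shock genes the mean deviations ran from -0.20 in WT replicate 4 to 0.14 in DGTT2 replicate 1. These include the 9 genes not shown to lie above background. Over the other 12 heat shock genes the mean was highest in WT replicate 2, at 0.16. It was lowest in WT replicates 3 and 4, at -0.12 and -0.26, as in the ER genes. Among the 21, the larger chaperones HSP70, HSP90.1, HSP90.2 and HSP101 averaged 0.31 in WT replicate 2 and -0.33 in WT replicate 4. The 7 cytosolic sHSPs, 5 of them not shown to lie above background, averaged -0.21 and -0.27 in the same arrays.

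A list of 10 genes that respond within minutes to touch and wounding varied across the same arrays. All 10 had a higher mean in DGTT2, where 49.7% of all features did. Of the 10, 0 were called and 1 had an unadjusted p under 0.05 (limma), where 10.5% of all features passed. The list's mean deviations were 0.05, 0.69, -0.82 and -0.98 in WT replicates 1 to 4, against 0.08 to 0.70 in DGTT2. The list's part in the values of the ER genes was not tested. The 6 leaf markers had means of at least 15.69, and their list means lay between -0.08 and 0.06 on every array. At means over 15 differences may be compressed, so this evenness cannot show that leaf content was alike. The 4 seed markers had gene means of 5.55 to 6.67 and the 4 flower markers of 5.72 to 6.78, near the pseudogene median. Of the flower markers 1 had an unadjusted p under 0.05 and 3 had a higher mean in DGTT2, while all 4 seed markers had a lower one (limma, 0 called in both, medians 0.32 and -0.23). All 8 were under the 90th percentile of pseudogenes. The seed list's mean ran from -0.19 to 0.02 in DGTT2 and from -0.21 to 0.37 in WT, and the flower list's from -0.17 to 0.49 and from -0.35 to -0.04. Lists of 5 epidermis and trichome, 3 phloem and 4 root markers had 0 members at an unadjusted p under 0.05 (limma, 0 called), with medians of 0.06, -0.008 and 0.11.

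**Figure D4:**
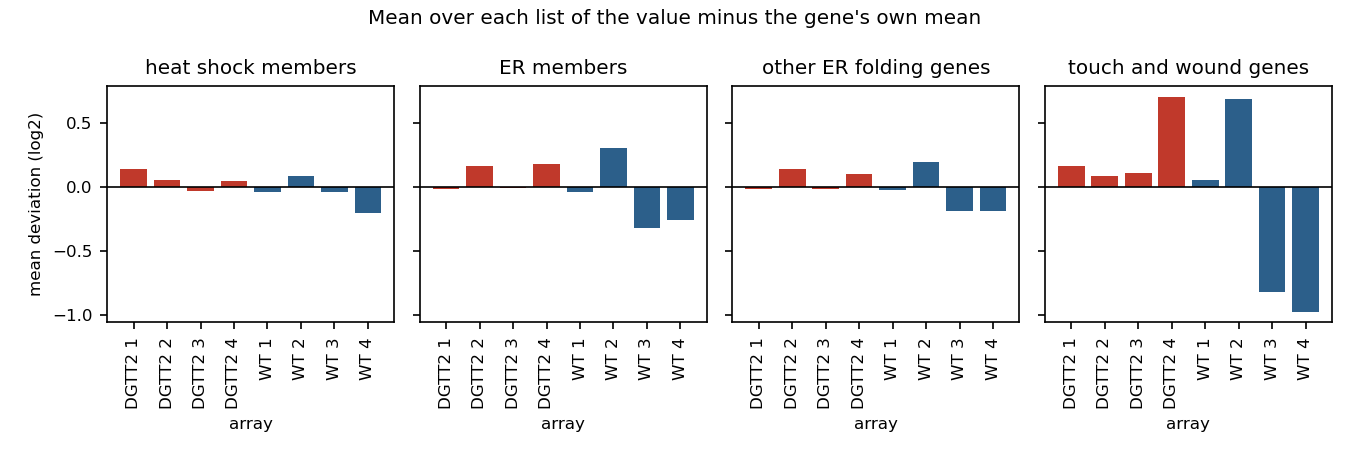
Mean over each list of the log2 value minus the gene's own mean, for each array, with DGTT2 in red and WT in blue. The ER members, the other ER folding genes and the touch and wound genes are highest or near highest in WT replicate 2 and lowest in WT replicates 3 and 4.

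The arrays lay on 2 slides, with 2 of each genotype on each. Adding slide to the fit left 0 of the 34 members past the threshold (limma), where 0.227% of all features did. With that block 1 of the 34 members, HSP22.0, had an unadjusted p under 0.05 (0.0465, adjusted p = 0.423, limma), where 3484 of all 30361 features did. HSP22.0 was not shown to lie above background. On slide 1 alone BIP3 differed by 1.22 and on slide 2 by 0.74, HSP70 by 0.59 and 0.14 and CRT3 by 0.20 and 0.45. In 11 of the 34 genes the slides gave opposite signs, where they did so in 11577 of all 30361 features. Slide itself gave 0 called members, where 0% of all features were called (limma). The 3 members at an unadjusted p under 0.05, where 9.31% of all features passed, were HSP23.6, HSP22.0 and CNX1, all with higher values on slide 2, CNX1 by 0.30. Higher means on slide 2 were found in 12 of 13 ER genes and 10 of 21 heat shock genes, against 48.1% of all features. On each slide the WT samples took positions 1 and 2 and the DGTT2 samples 3 and 4, so the place on the slide and the genotype cannot be told apart.

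Other genes of these pathways, 85 in 7 lists set down by role, gave 0 calls (limma). At an unadjusted p under 0.05 there were 8, all with a higher mean in DGTT2, against the 10.5% of all features above. Of all features at that p, 1384 were higher and 1810 lower in DGTT2 (limma). Among the 8, AT4G21870, AT1G59860 and NAC103 had a WT mean under the 90th percentile of pseudogenes. Among 16 other HSFs 3 had such a p, and the list's median difference was -0.05. HSFA3, a factor of the drought and heat response, differed by 0.50 (SE 0.12, adjusted p = 0.177), at 9.52 to 9.63 in DGTT2 and 8.85 to 9.26 in WT. HSFA8 differed by 0.40 (SE 0.15, adjusted p = 0.375). With slide in the fit 5 of the 16 had an unadjusted p under 0.05, 3 higher and 2 lower in DGTT2 (limma, 0 called). In that fit 3484 of all 30361 features had such a p, 1508 higher and 1976 lower. Among the 16 HSFs the smallest adjusted p in that fit, 0.0791 (limma), was that of HSFB3. HSFB3 was a lower one, at 6.59 in DGTT2 and 7.34 in WT, and not shown to lie above background. In the list of 9 other small heat shock loci 2 had an unadjusted p under 0.05, AT4G21870 and AT1G59860. AT4G21870 was at 9.03 in DGTT2 and 8.40 in WT (adjusted p = 0.266), and AT1G59860 at 7.41 and 6.54 (adjusted p = 0.39). Both had a WT mean under the 90th percentile of pseudogenes. The median difference over the 9 was 0.09.

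In 17 other chaperones and cochaperones of the cytosol the median was 0.05 and 1 gene had an unadjusted p under 0.05 (limma, 0 called). This was HOP2, an adaptor between HSP70 and HSP90, at 13.87 to 14.08 in DGTT2 and 13.65 to 13.80 in WT, with a difference of 0.23 (SE 0.09, adjusted p = 0.411). ROF2, a heat-induced partner of HSP90, differed by 0.33 (adjusted p = 0.599). The 8 chaperones of plastids and mitochondria had a median of -0.03, with none at an unadjusted p under 0.05 and 0 called (limma). CPHSC70-2 differed by -0.13 and HSP90.6 by -0.10. The 4 genes of HSF target enzymes and DREB2 factors had a median of 0.03, likewise with none at that p and 0 called, with GOLS1, which makes galactinol, at 0.24 and DREB2C at -0.19.

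On the ER side, 15 other folding genes had a median difference of 0.02 and 1 with an unadjusted p under 0.05 (limma, 0 called). This was ERDJ3A, an ER cochaperone needed by pollen at high temperature, which differed by 0.74 (SE 0.33, adjusted p = 0.473). With slide in the fit 0 of the 15 had an unadjusted p under 0.05 (limma). The DGTT2 values of ERDJ3A were 9.94, 10.49, 10.50 and 10.43. Its WT values were 10.20, 10.26, 9.05 and 8.88, so that WT replicates 3 and 4 were again the low arrays. AT4G16660 differed by 0.27 (adjusted p = 0.516). Of 16 genes of ER stress signalling and ER-associated degradation 1 had an unadjusted p under 0.05 (limma, 0 called), with a median of 0.03. NAC103, a transcription factor downstream of bZIP60, had that p (adjusted p = 0.262). It was at 8.58, 8.51, 8.55 and 8.65 in DGTT2 and at 8.53, 7.91, 7.87 and 7.61 in WT, where replicate 1 lay within the DGTT2 range and the mean was under the 90th percentile of pseudogenes. Unlike BIP3 it was not high in WT replicate 2. IRE1B, the other sensor of its kind in leaves, differed by -0.13 (adjusted p = 0.682).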

How the data were processed

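The authors deposited log2 expression values, 1 per feature and array, for 8 one-colour NimbleGen arrays. RMA and Partek are named for them, per the submitters' processing notes, with no settings. That they are log2 was taken from their range. RMA makes the arrays' distributions alike, which would hide a shift of most genes. Array medians ran from 10.19 to 10.28. The number of arrays limits the precision, and each p-value sets a difference against the spread of these samples within genotypes.

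The test was limma 3.58.1 (R 4.3.3) on the deposited values, with lmFit and eBayes, genotype as the only term, both sides, and Benjamini-Hochberg adjustment over all 30361 features at a threshold of 0.05. Features were matched by locus to RefSeq's table of assembly TAIR10.1, used for names, pseudogenes and neighbours; 29976 matched. The test was run on simulated data with known changes. Alternatives were other normalizations, a filter on low values, slide as a fixed or random block (statmod 1.5.0), each slide alone, the replicate number as a block, other variance models and each array left out in turn.

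The members and lists were chosen with earlier results of these data known. All members are named. Values per array are given for the 4 with the largest difference in each set, and the 2 genes of smallest p are named from each further list. HSFA2, HSP90.1, HSFB3 and other values per array were chosen after their values were seen. No probe or gene sequences were used here.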

Additional observations from a re-analysis of the deposited data

Results flagged for a closer look

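In 3 of 68 groups of 4 arrays, 34 genes in each of the genotypes, 1 array stood apart from the others by more than Dixon's 95% critical value for the gap over the range. Chance alone gives about 1 in 20 such groups. BIP1 was at 15.16 in DGTT2 replicate 1, with the nearest DGTT2 array at 15.57. BZIP28 was at 12.62 in DGTT2 replicate 1, with the other DGTT2 arrays at 12.68. AT2G29500 was at 9.54 in WT replicate 1, with the nearest WT array at 9.39.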

How the results depend on the processing

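The calls of 0 of 21 heat shock genes and 0 of 13 ER genes held under all alternatives run (limma), an adjusted p under 0.10 included. At an unadjusted p under 0.05, leaving out 1 array gave 0 to 3 heat shock genes and 0 to 2 ER genes. The most came without WT replicate 2 (HSP70, HSP90.1, HSFB1, BIP3 and CRT3, smallest adjusted p = 0.188, limma). The share of all features at that unadjusted p in these fits is not given here. No result about the members is read from these counts. Without WT replicate 2 the number called among all features also rose, to 39, against 22 with every array kept. In all features 22 were called. The count was 13 with centring on array medians, 69 with slide as a fixed block, 1 on slide 1 alone, 1 on slide 2 alone, 46 with trend and robust, 118 at an adjusted p under 0.10, and 5 to 39 with 1 array left out. The replicate number as a block gave 3, with 0 members called. No clear pairing by number was seen in the array values. Same-numbered arrays correlated from -0.03 to 0.20, and 2 of 8 correlated best with their own number. Whether the samples were paired when grown or collected cannot be told from this. The median over heat shock genes was 0.0002 on slide 1 alone and ran from 0.037 to 0.19 with 1 array left out. The median over ER genes ran from 0.049 without WT replicate 4 to 0.146 without WT replicate 2. In each of the 34 genes leaving out some array moved the difference by over 1.5 times or turned its sign.

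The difference changed sign in 11 members with 1 array left out and in 11 under other settings. The largest that did so was 0.31 (HSP18.2). No member passed the test, so a change of sign could be seen only in differences that passed none. The differences of HSP18.2, AT1G07400 and HSP21, not shown to lie above background, are of array values only. On slide 1 alone the differences were HSFA1A -0.016, MBF1C 0.0026, HSP17.4 -0.077, HSP18.2 -0.0048, CNX1 0.0074. On slide 2 alone they were HSFA2 -0.042, HSP101 0.045, BIP1 0.024, BIP2 -0.11, ERDJ3B -0.0046, SHD -0.029. With array weights they were HSP101 0.021, BIP1 0.0092, CNX1 0.019, and with centring on array medians BIP2 -0.014, ERDJ3B -0.034, SHD -0.017. With 1 array left out, the differences ran over these ranges: HSFA2 -0.18 to 0.37, HSP101 -0.076 to 0.081, HSP17.4 -0.048 to 0.24, AT1G07400 -0.18 to 0.050, HSP21 -0.12 to 0.010, BIP1 -0.074 to 0.086, BIP2 -0.051 to 0.15, ERDJ3B -0.042 to 0.088, SHD -0.038 to 0.12, CNX1 -0.10 to 0.086, CRT1b -0.048 to 0.34. The causes were not tested.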
